A study of Mus musculus with 32 samples.

Results

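The comparison set the amygdala of mice after acute stress against the amygdala of mice at baseline, all of them injected with 4-thiouridine (4sU). It used 10 of the 32 samples of the series: 5 acute stress and 5 baseline libraries, chosen by their titles. The mice are labelled wild type, while the sources used here do not give strain, age, sex or the kind and length of the stress. Both groups carried 4sU at 100 mM in DMSO, injected stereotaxically into the amygdala 24 h before RNA was taken, so the controls too had a brain injection and the solvent. RNA came from the amygdala of both sides, and nothing in the labels says whether animals were pooled. As background there were 9 libraries of mice injected with DMSO alone, 4 at baseline and 5 after acute stress.

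4sU is a uridine analogue that cells build into RNA made after the injection. Alkylation of the RNA makes the base read as C in place of T, so T-to-C conversions mark RNA made while the label was present. Stress activates the hypothalamus, pituitary and adrenal gland, and the adrenal releases corticosterone, the main glucocorticoid of mice. The hormone enters the brain and binds the glucocorticoid receptor (Nr3c1) and the mineralocorticoid receptor (Nr3c2). Bound receptors move to the nucleus, attach to palindromic response elements in DNA and change transcription in neurons, glia and vessel cells. The amygdala, which takes part in fear and emotional learning, holds both receptors.

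The baseline libraries held 16721614 to 17498512 exon counts and the acute ones 18464001 to 21228741, so depth did not overlap between the groups. Levels are given in CPM, exon counts scaled by library size and edgeR's TMM factors, which take that difference in depth out of the levels. Counts thinned to 16721600 per library gave 106 genes higher and 32 lower. Tissue markers were present: basolateral amygdala genes Rspo2, Lmo3, Etv1 and Slc17a7 averaged 12, 149, 87.2 and 698 CPM at baseline, and the central amygdala genes Prkcd and Tac2 46.6 and 28.5 CPM. Striatal genes such as Adora2a (165 CPM) and the choroid plexus gene Ttr (2455 CPM) were present as well. Acute libraries 1 and 2 stood apart from the others on the first principal component of expression (26.3% of variance), at 15.6 and 16.7 against -8.38 to 2.30 for the remaining 8. In them the mean level of the 20 endothelial and pericyte markers was 4.72 and 4.52 log2 CPM, against 4.05 to 4.41 in the other 8, and Pmch, a hypothalamic peptide gene, had 5.57 and 8.53 CPM against 0.0516 to 1.73. Their part in the results was not tested, and calls that were lost without both are named below.

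After acute stress 107 genes were higher and 30 lower (0.692% and 0.194% of 15456 genes tested, adjusted p under 0.05 by edgeR's quasi-likelihood test). Every acute library lay above every baseline library for 1.38% of genes and below for 0.738%. The median log2 fold change over all genes was -0.00, and 26 rises and 3 falls were past 2-fold. The count rests on the fit: with the DMSO libraries in the same fit 33 genes were higher and 10 lower, all 43 among these 137, and DESeq2 gave 175 and 57. Without acute libraries 1 and 2 there were 78 and 26, of which 78 in all were among the 137. Leaving out any 1 library left 79 to 105 rises and 12 to 34 falls, and the falls numbered under 20 without baseline library 2, 3, 4 or 5 or acute library 2, 4 or 5. Of the 52 called genes described here by a set rule, 32 passed in all 10 fits without 1 library. The labels do not say that the samples are separate animals, and the p-values speak only of spread among these samples.

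With the DMSO libraries in the fit 27 of the 52 missed the threshold. Among the glucocorticoid-responsive genes these were Klf9, Sult1a1, Cebpd, Xdh, Mertk, Pnpla2, Rasd1 and Plin4. Among glial and vessel genes they were Gjb6, Glul, Cx3cr1, Foxj1 and Cldn5. Genes just outside the threshold were Lrrc8c, Zfp276 and Cdc42ep2, with log2 fold changes of 0.49, 0.32 and -0.49.

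**Figure D1:**
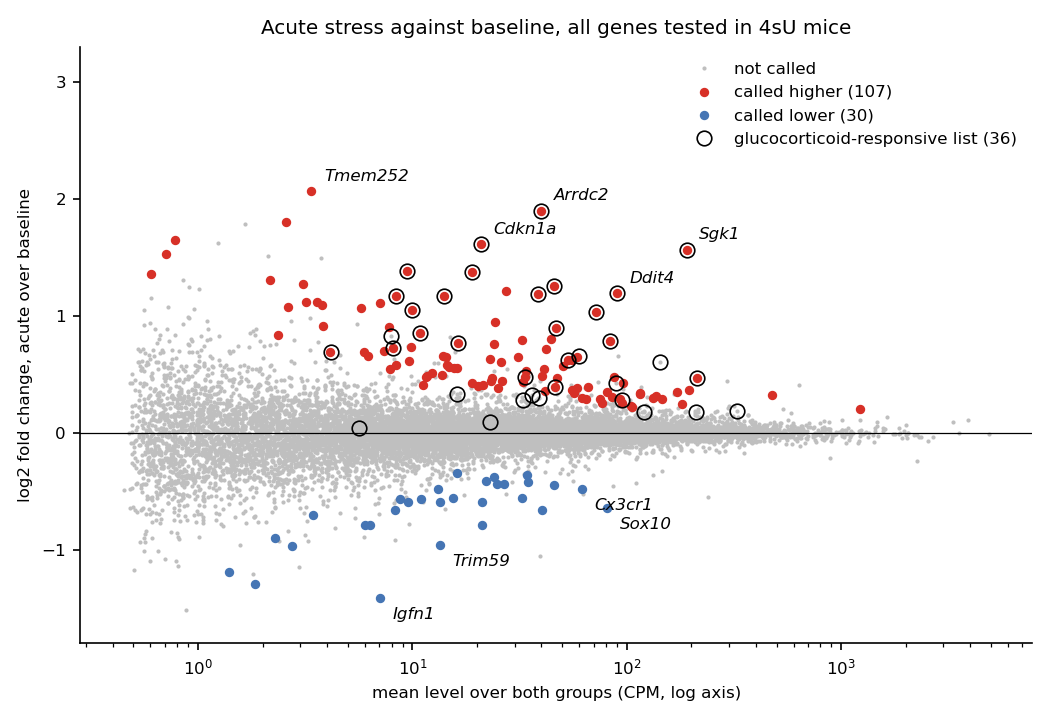
Log2 fold change of acute over baseline against the mean level in CPM (log axis) for 15456 genes in 10 libraries. Of the points, 107 called higher are red, 30 called lower are blue and the 36 glucocorticoid-responsive genes are circled; all circles lie above 0, up to Arrdc2 at 1.9.

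Genes known to respond to glucocorticoids led the rises. Of the 36 in the list 21 rose and 0 fell, against 0.692% and 0.194% of all genes, and the 36 had log2 fold changes of 0.04 to 1.9 with a median of 0.71. The list was drawn up with earlier results of these libraries known, so its direction is no independent evidence. It gave 13 rises with the DMSO libraries in the fit, 29 with DESeq2 and 20 without acute libraries 1 and 2.

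Sgk1, a kinase that regulates ion channels and transporters, lies at chr10:21882184-21999902 (mm10, as for all genes here). It had 94.4, 88.0, 121, 95.5 and 82.8 CPM in baseline libraries 1 to 5, and 286, 295, 276, 282 and 286 CPM in acute libraries 1 to 5. The acute libraries lay within a narrow band, and none came near the highest baseline library. The log2 fold change was 1.57 ± 0.08 (SE, adjusted p = 4.37e-08).

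The promoter of Sgk1 carried the only copy of the full palindrome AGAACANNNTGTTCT, the textbook glucocorticoid response element, among the 12171 tested genes that matched a RefSeq promoter by symbol (GRCm38.p6, from 250 bases before to 50 after a start). It was in 1 of its 6 promoter windows, with the first base of the shorter match at -188 from that start. A shorter palindrome, GNACANNNTGTNC, includes the first and reads the same on both strands. It was found in 4 of the 87 risers with a window (4.60%), in 0 of 18 fallers and in 52 of all 12171 genes (0.427%). Windows numbered 124 for the 87 risers and 15487 for the 12171 genes. Of 29 glucocorticoid-responsive genes with a window 4 held it (13.8%): Sgk1 and Map3k6, and also Fam107a and Mt1, which were not called. The sites in risers are shown because they are the only copies among them, 30 bases each, 5′ to 3′ on the gene's strand, with the match in capitals.
Sgk1, chr10:21993694-21993723, plus strand: tgcggaaaGAACAGAATGTTCtcggagatt
Map3k6, chr4:133240629-133240658, plus strand: gaatagggGCACAGGCTGTTCcggaagtgg
Txnip, chr3:96557777-96557806, plus strand: cgctaggaGCACACCGTGTCCacgcgcccc
Ptpdc1, chr13:48593521-48593550, minus strand: cagtatttGAACAATTTGTCCaaaacacaa
A match is a description of letters in this window and no measure of binding. Of these 4 genes Map3k6, a stress-activated kinase, rose by 1.17 ± 0.13 in log2 (5.15 to 11.6 CPM) and Txnip by 0.95 ± 0.12. Ptpdc1, a phosphatase gene outside the rule for named genes and picked for its site, rose by 0.38 (51.1 to 66.6 CPM, adjusted p = 0.012).

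Feedback genes of the receptor rose while the receptors themselves were not called. Fkbp5 (chr17:28398753-28486149) encodes a co-chaperone that lowers the receptor's affinity for hormone. It had 65.7, 56.9, 53.9, 66.3 and 64.5 CPM at baseline and 110.1, 113, 98.5, 106 and 102 CPM after acute stress. The groups did not overlap, with a log2 fold change of 0.78 ± 0.06 (adjusted p = 3.94e-06). Tsc22d3 (chrX:140539529-140600522), which encodes the anti-inflammatory leucine zipper protein GILZ, had 42.3, 53.3, 49.5, 51.7 and 37.7 CPM at baseline and 98.3, 106, 91.2, 89.6 and 96.3 CPM after stress. Again every acute library was above every baseline one, and the log2 fold change was 1.04 ± 0.08 (adjusted p = 5.98e-06).

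Of the 15 measured corticosteroid receptor and chaperone genes 0 rose and 0 fell (median log2 fold change 0.02). Nr3c1 had 73.4, 71.2, 74.8, 70.1 and 75.6 CPM at baseline and 68.5, 72.5, 62.5, 61.8 and 61.7 CPM after stress. Only acute library 2 reached into the baseline range, and the log2 fold change was -0.16 ± 0.06 (adjusted p = 0.372). Without acute libraries 1 and 2 the log2 fold change of Nr3c1 was -0.23, just outside the threshold (edgeR's quasi-likelihood test, adjusted p = 0.0576). Nr3c2 averaged 71.2 ± 5.88 and 70.9 ± 7.79 CPM (SD, n = 5 each), and the co-chaperone Fkbp4 138 ± 9.33 and 138 ± 6.13 CPM. Their log2 fold changes were -0.01 ± 0.08 and -0.00 ± 0.05, with signs that changed between fits.

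Transcription factors were among the risers, Klf9 and Cebpd of this list and Klf15 of another. Klf9, a Krüppel-like repressor, had 202, 167, 179.5, 159 and 179 CPM at baseline and 253, 220.2, 229, 302 and 227 CPM after stress, 0.47 ± 0.09 in log2 (adjusted p = 0.0145). It lost its call without baseline library 2 or 5, and without acute libraries 1 and 2 together, where its log2 fold change was 0.51 (adjusted p = 0.0662). Cebpd, a factor of the acute-phase response, rose from 7.70 ± 1.65 to 13.9 ± 1.93 CPM (0.86 ± 0.14, adjusted p = 0.00356), and its gene overlaps Spidr on the other strand by 321 bases. Klf15, a Krüppel-like factor that glucocorticoids use in fuel metabolism, rose from 43.7 ± 1.19 to 67.2 ± 3.87 CPM (0.62 ± 0.05, adjusted p = 5.49e-06). The groups of all 3 factors were separate.

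**Figure D2:**
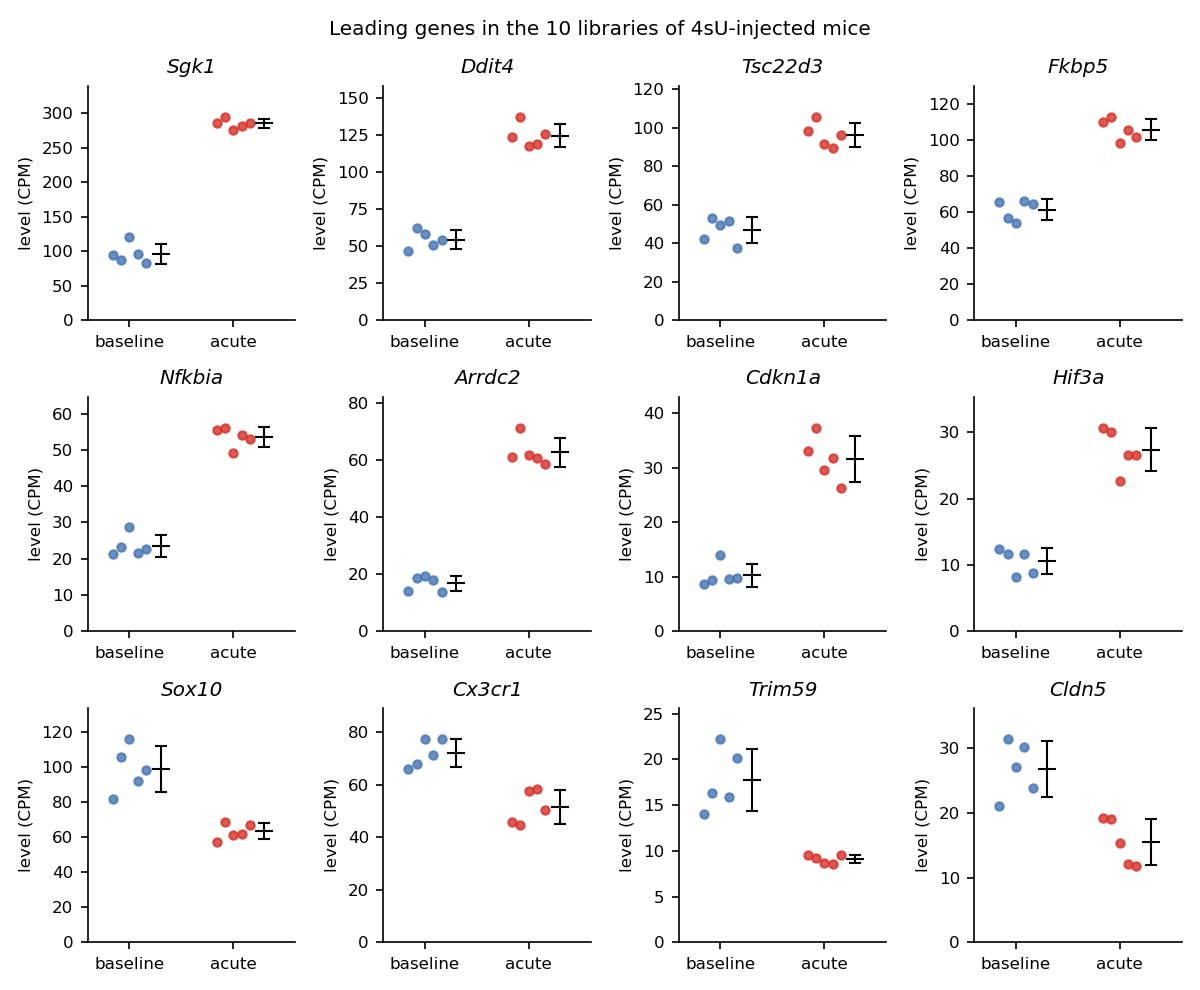
Level in CPM of 12 genes in each of the 5 baseline (blue) and 5 acute (red) libraries, with the mean and SD as a bar. The top 8 genes rose, Sgk1 from 96.3 to 285 CPM, and the bottom 4 fell, Sox10 from 98.9 to 63.4 CPM; in each panel the groups are separate.

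Ddit4 and Cdkn1a, a brake on growth and one on the cell cycle, rose as members of the list. Ddit4 (chr10:59949675-59951770), an inhibitor of the growth kinase mTOR, had 46.6, 62.5, 58.5, 50.7 and 54.4 CPM at baseline and 124, 138, 118, 119 and 126 CPM after stress. The groups were far apart and the log2 fold change was 1.19 ± 0.07 (adjusted p = 1.07e-07). Cdkn1a (chr17:29090979-29100722), the cyclin-dependent kinase inhibitor p21, had 8.59, 9.49, 13.9, 9.63 and 9.79 CPM at baseline and 33.0, 37.3, 29.5, 31.8 and 26.2 CPM after stress. Baseline library 3 was above the others of its group, and the log2 fold change was 1.62 ± 0.12 (adjusted p = 3.94e-06).

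Of 18 measured mTOR brake and autophagy genes 3 rose and 0 fell (median 0.04): Ddit4, Klf15 and Sesn1. Sesn1, a sestrin that restrains mTOR, rose by 0.36 ± 0.05 (48.7 to 62.6 CPM, adjusted p = 0.00102). Its relatives Sesn2 and Sesn3, and Ulk1 and Map1lc3b of autophagy, had log2 fold changes of 0.11, -0.03, 0.04 and 0.02. Of 18 p53 targets 3 rose and 0 fell (median 0.09): Cdkn1a, Sesn1 and Trp53inp1 (0.65 ± 0.13), no longer called in 5 of the 10 leave-one-out fits or without acute libraries 1 and 2. The p53 targets Mdm2, Bax and Bbc3 had 0.13, -0.07 and -0.06 and were not called. Ddit4 and Cdkn1a are counted in the glucocorticoid list too, and Sesn1 in both lists of this paragraph. Over all genes 0.692% rose and 0.194% fell, the shares to set beside these and the later list counts. These lists too were chosen with earlier results of the data known.

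The rising fuel handling genes and alpha-arrestins described next were, apart from Txnip, members of the glucocorticoid list. Arrdc2 (chr8:70835138-70839720), an arrestin-domain protein, had 14.1, 18.6, 19.6, 17.9 and 13.7 CPM at baseline and 61.1, 71.4, 61.7, 60.8 and 58.6 CPM after stress. This was the largest rise in the list, 1.9 ± 0.09 (adjusted p = 2.62e-08), with acute library 2 above the rest. Arrdc3, its relative, rose by 0.62 ± 0.09 and Txnip, an arrestin-domain protein that limits glucose uptake, from 16.6 ± 3.24 to 32.0 ± 3.58 CPM (0.95 ± 0.12, adjusted p = 0.00049). Txnip lies wholly over Gm15441 on the other strand, and the sources used here do not say whether counting used strand.

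Of 19 measured fuel genes 4 rose and 0 fell (median 0.22): Hif3a, Plin4 and Pdk4, all counted in the glucocorticoid list too, and Txnip. Hif3a (chr7:17030993-17062427), a hypoxia factor that blunts the others of its family, had 12.5, 11.7, 8.13, 11.7 and 8.78 CPM at baseline and 30.7, 30.1, 22.6, 26.6 and 26.6 CPM after stress. No libraries of the 2 groups overlapped, and the log2 fold change was 1.37 ± 0.12 (adjusted p = 8.79e-06). Pdk4, a kinase that shuts pyruvate out of oxidation, went from 8.66 ± 1.29 to 19.5 ± 5.6 CPM (1.17 ± 0.18, adjusted p = 0.00454), highest in acute libraries 1 and 2. The lipid droplet gene Plin4 rose by 1.26 ± 0.20 (adjusted p = 0.0158) and lost its call without acute library 2, or without libraries 1 and 2. Pdk2, Cpt1a and Slc2a3, which serve the same fuels, had 0.03, 0.10 and 0.07 and were not called.

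Nfkbia and Errfi1 of the list encode inhibitors of signalling, and both rose. Nfkbia (chr12:55489409-55492647), the inhibitor that holds NF-kappaB in the cytoplasm, had 21.3, 23.2, 28.8, 21.5 and 22.6 CPM at baseline and 55.5, 56.1, 49.0, 54.0 and 52.9 CPM after stress. The change was 1.19 ± 0.08 (adjusted p = 2.71e-07). Errfi1, an inhibitor of the EGF receptor, rose from 32.8 ± 2.19 to 61.0 ± 5.19 CPM (0.90 ± 0.07, adjusted p = 1.80e-06). Of 15 measured NF-kappaB and cytokine genes 2 rose and 1 fell (median 0.01): Nfkbia, the interleukin 1 receptor Il1r1 (0.70 ± 0.15) and the death ligand Tnfsf10 (-1.19 ± 0.23). Il1r1 was highest in acute libraries 1 and 2 (10.8 and 11.8 CPM against 7.03 to 8.98 in the other 3) and its call was gone in 8 leave-one-out fits and without those libraries, as was that of Tnfsf10 in 3. Tnf, Il1b, Il6, Ccl3 and Ccl4 did not pass the filter on low counts. Of 24 interferon-stimulated genes 0 were called (7 above 0, median -0.15), and of 24 heat shock and unfolded protein response genes 0 (median -0.07). Neither lean was steady: without acute libraries 1 and 2 the medians were 0.02 and 0.02, and without baseline library 3 that of the interferon-stimulated genes was 0.03, with 0 calls in each.

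Further called members of the glucocorticoid list were Plekhf1 (1.38 ± 0.13), Xdh (1.05 ± 0.18), Rasd1 (0.77 ± 0.12), Sult1a1 (0.72 ± 0.14), Pnpla2 (0.48 ± 0.08) and Mertk (0.40 ± 0.08). Xdh, the enzyme that makes uric acid, had 17.1 and 18.4 CPM in acute libraries 1 and 2, 9.01 to 12.9 in the other acute libraries and 6.05 to 7.12 at baseline. Without acute libraries 1 and 2, Sult1a1 and Mertk lost their calls. Not called were 15 members, among them the metallothioneins Mt1 and Mt2 (0.18 and 0.43), Dusp1 (0.09), Zbtb16 (0.66) and Slc2a1. Slc2a1, the glucose transporter of the blood-brain barrier, had 101, 115, 116, 124 and 109 CPM at baseline and 217, 210.0, 140.1, 155 and 141 CPM after stress. Every acute library was above every baseline one, with libraries 1 and 2 far above the other 3, and the change of 0.61 ± 0.13 missed the threshold (adjusted p = 0.0546). Without those 2 libraries it was 0.36 (adjusted p = 0.00854).

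Low genes gave the steepest rises outside the list. Tmem252, a membrane protein of little-known function, had 0.519, 1.41, 1.42, 1.75 and 1.37 CPM at baseline and 4.73, 6.70, 3.59, 7.33 and 4.94 CPM after stress. It rose by 2.07 ± 0.26 (adjusted p = 0.000488), and 1401 of its bases overlap Pgm5 on the other strand, which had 0.06. Ada, adenosine deaminase, which clears the neuromodulator adenosine, rose from 1.14 ± 0.358 to 4.00 ± 0.720 CPM (1.80 ± 0.21, adjusted p = 0.000281). Ch25h, which makes an oxysterol, and the interleukin receptor Il12rb1 rose by 1.27 ± 0.19 and 1.30 ± 0.20. Itgad and Lyve1, genes of myeloid and lymphatic cells, rose by 1.65 ± 0.31 and 1.53 ± 0.34 from under 0.6 CPM. The call of Itgad was gone in 2 leave-one-out fits and that of Lyve1 in 9, and both were gone without acute libraries 1 and 2. Itgad overlaps 2 genes on the other strand.

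Activity genes did not move together. Of 30 immediate early genes 2 rose and 0 fell (17 above 0, median 0.04). Gadd45g, a growth arrest gene, rose from 19.7 ± 2.17 to 26.7 ± 2.77 CPM (0.44 ± 0.09, adjusted p = 0.0230), and the small Maf factor Maff from 2.66 ± 0.409 to 5.01 ± 1.43 CPM (0.91 ± 0.19, adjusted p = 0.0293). Their calls were gone in 5 and 7 leave-one-out fits, and that of Maff without acute libraries 1 and 2, where its log2 fold change was 0.94.

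Fos, the common marker of neuronal firing, had 8.47, 13.3, 16.8, 8.35 and 19.5 CPM at baseline and 12, 14.3, 10.5, 16.4 and 11.9 CPM after stress. The acute values lay inside the baseline range (-0.03 ± 0.23, adjusted p = 0.999), and the sign changed between fits. Arc, which acts at synapses, had 48.9, 83.7, 101, 43.1 and 93.4 CPM at baseline and 42.5, 46.0, 51.8, 65.6 and 52.2 CPM after stress. Baseline libraries spread more widely than acute ones, and the change of -0.52 ± 0.25 was not called (adjusted p = 0.807). Npas4, a neuronal activity factor, was nearest the threshold at -0.65 ± 0.15 (17.4 to 11.1 CPM, adjusted p = 0.0571), with 1 acute library inside the baseline range, and it passed without baseline library 4 or acute library 4. Egr1 (-0.33 ± 0.22), Nr4a1 (-0.41 ± 0.17) and Bdnf (0.07 ± 0.17) were not called.

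Peptide and clock genes held no call. Of 30 measured stress hormone and neuropeptide genes 0 were called (21 above 0, median 0.10). Crh, the peptide that starts the hormonal stress response and is made in the central amygdala, had 6.0, 7.48, 9.04, 6.13 and 7.22 CPM at baseline and 7.31, 8.07, 9.53, 11.6 and 8.41 CPM after stress. The ranges overlapped (0.33 ± 0.14, adjusted p = 0.651). Penk, Sst and Pdyn, abundant peptides of the region, had 0.10, -0.07 and 0.14. Of 19 clock genes 0 were called (13 above 0, median 0.04). Per1, a clock gene that glucocorticoids also induce, averaged 112 ± 8.28 and 127 ± 4.5 CPM (0.18 ± 0.05, adjusted p = 0.226). Synaptic, oxidative phosphorylation, ribosomal protein and cholesterol synthesis genes gave 0 calls among 44, 53, 43 and 21 measured. Oxidative phosphorylation and ribosomal protein genes above 0 numbered 37 of 53 and 25 of 43 with all libraries. Without acute libraries 1 and 2 the numbers were 53 and 43 (medians 0.14 and 0.13). Without acute library 3 they were 12 and 2 (medians -0.03 and -0.07), again with 0 calls. Of the 21 cholesterol synthesis genes 18 were above 0 (median 0.07), against 49.4% of all genes. With 0.886% of all genes called, 0 calls does not set any of these lists apart from other genes.

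**Figure D3:**
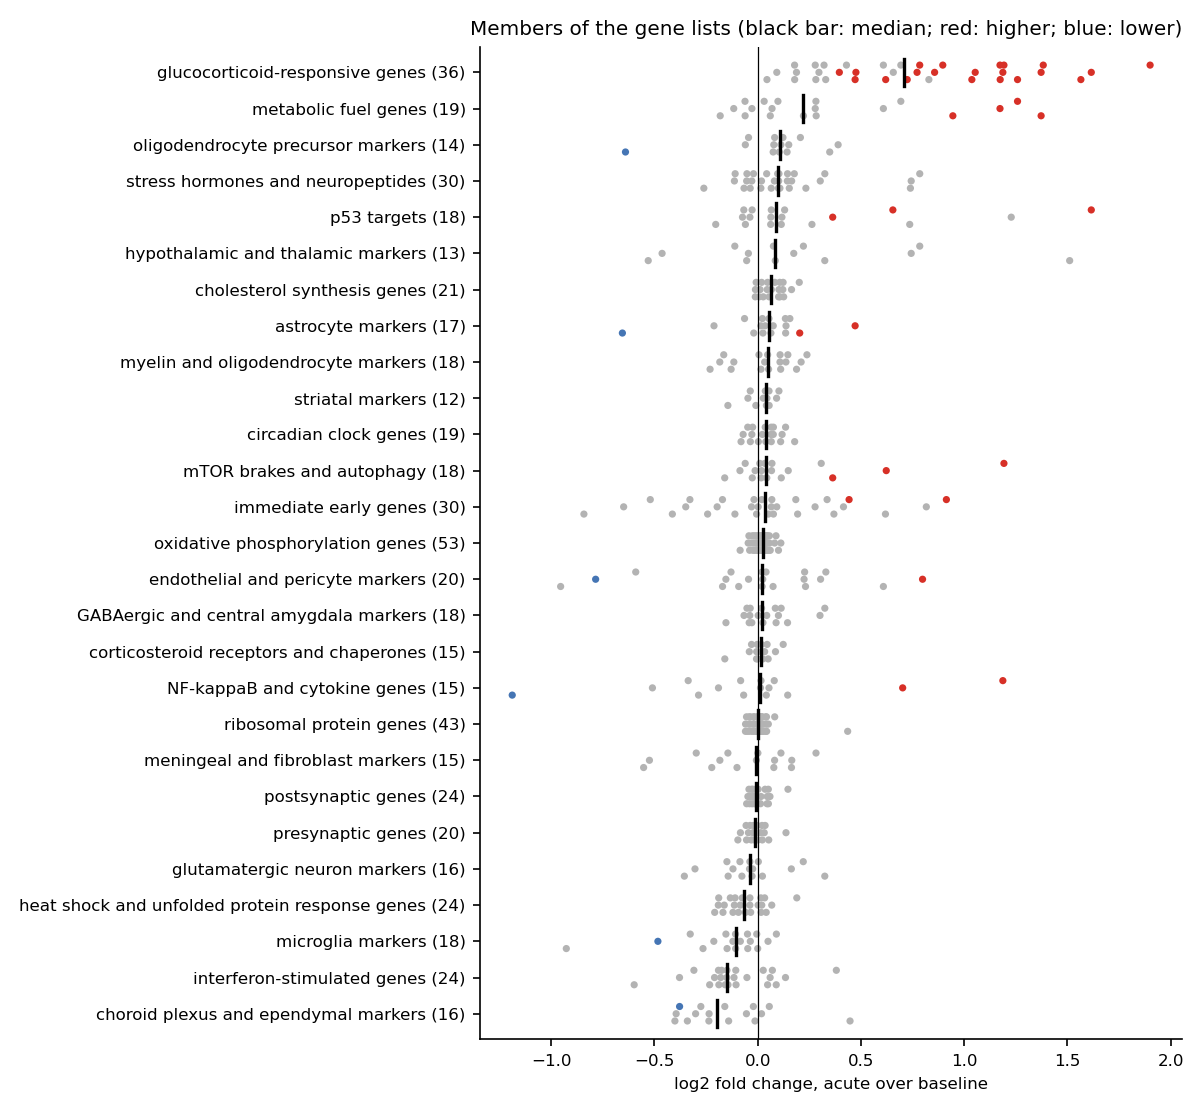
Log2 fold change of each measured member of 27 gene lists, acute over baseline, 1 row a list with the number measured; black bars are medians, red points were called higher and blue ones lower. The glucocorticoid-responsive row has a median of 0.71, and the others lie between -0.20 and 0.22.

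Falls were concentrated in no list. Several of the genes are known from glia, but the share of glial genes among fallers or among all genes was not counted. Sox10 (chr15:79154913-79164490), the lineage factor of oligodendroglia, had 81.8, 106, 116, 92.1 and 98.3 CPM at baseline and 57.4, 68.7, 61.6, 62.2 and 67.3 CPM after stress. The groups were separate, and the log2 fold change was -0.64 ± 0.08 (adjusted p = 0.000675). The other 13 oligodendrocyte precursor markers were not called, Pdgfra at 0.08 and Olig2 at 0.10, nor were the 18 myelin markers (median 0.05). In bulk tissue, fewer cells of a type and less RNA per cell cannot be told apart.

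Of 17 astrocyte markers 2 rose and 1 fell (median 0.05). Sox9, a lineage factor of astrocytes, had 43.6, 45.5, 43.1, 55.9 and 57.8 CPM at baseline and 36.6, 23.1, 34.4, 33.3 and 28.6 CPM after stress. It fell (-0.66 ± 0.12, adjusted p = 0.0217), with its call gone in 3 leave-one-out fits. Gjb6, an astrocyte gap junction protein, rose from 39.5 ± 2.26 to 54.8 ± 3.08 CPM (0.47 ± 0.06, adjusted p = 0.000389). Glul, the glutamine synthetase of astrocytes, rose by 0.20 ± 0.05 (1143 ± 29.3 to 1316 ± 64.4 CPM, adjusted p = 0.0412) with its call gone in 9 such fits and without acute libraries 1 and 2. Gfap, a filament of reactive astrocytes, was not called (-0.21 ± 0.17, adjusted p = 0.999). Hes5, a Notch target of neural progenitors outside the rule for named genes, fell as well (-0.60, 25.3 to 16.7 CPM).

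Cx3cr1 (chr9:120048683-120068296), the fractalkine receptor of microglia, had 66.1, 67.8, 77.3, 71.3 and 77.6 CPM at baseline and 46.0, 44.7, 57.8, 58.6 and 50.4 CPM after stress. It fell by 0.48 ± 0.08 on the log2 scale (adjusted p = 0.00464). It was the 1 of 18 microglia markers called, and 2 of the 18 were above 0 (median -0.11). Without acute libraries 1 and 2 there was still 1 call, and 9 of the 18 were above 0 (median -0.00). Csf1r, the growth factor receptor of microglia, averaged 146 CPM in each group. The mean level of the 18 was 4.84 to 5.22 log2 CPM at baseline and 4.67 to 5.04 after stress, and its part in the fall of Cx3cr1 was not tested. Sall1 and Bin2, genes of microglia picked after their values were seen, fell too (38.7 to 30.2 and 13 to 8.81 CPM). Picked this way, they say nothing about microglia genes as a set.

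Vessel genes went in different directions. Cldn5 (chr16:18776847-18778262), the tight junction protein of the blood-brain barrier, had 21.2, 31.5, 27.2, 30.2 and 23.8 CPM at baseline and 19.2, 19.1, 15.4, 12.1 and 11.8 CPM after stress. Mfsd2a, the barrier's lipid transporter, had 23.7, 23.3, 21.6, 26.3 and 24.1 CPM at baseline and 49.6, 44.6, 34.1, 36.1 and 42.9 CPM after stress. Cldn5 fell (-0.79 ± 0.15, adjusted p = 0.0270, gone in 6 leave-one-out fits) and Mfsd2a rose (0.80 ± 0.09, adjusted p = 0.000295). Of 20 endothelial and pericyte markers these were the only calls (median 0.02). Both genes were highest among acute libraries in libraries 1 and 2, where the level of the whole list was highest, and both were called without these libraries. The list itself changed without them: 2 markers were higher and 4 lower, 4 of 20 were above 0 and the median was -0.16. Clec14a, a lectin of endothelium, was then called at -1.25 (adjusted p = 0.0312), against -0.95 and no call with all libraries. Without acute library 1 alone 1 marker was higher and 3 lower. Of 16 choroid plexus and ependymal markers 0 rose and 1, the cilia factor Foxj1, fell (-0.38 ± 0.08, median of the list -0.20). Its call was gone in 6 leave-one-out fits and without acute libraries 1 and 2, where its log2 fold change was still -0.38.

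Other large falls were those of Trim59, Igfn1, Cdh3 and Klhl6. Trim59 (chr3:69035294-69044742), a ubiquitin ligase, had 14.0, 16.4, 22.3, 15.9 and 20.2 CPM at baseline and 9.57, 9.24, 8.68, 8.56 and 9.55 CPM after stress (-0.96 ± 0.12, adjusted p = 0.00034). The acute libraries were close together and all below baseline. Igfn1, a sarcomere-type protein, had the largest fall among called genes (-1.41 ± 0.28, 10.3 ± 4.58 to 3.86 ± 1.13 CPM, adjusted p = 0.0347). Cdh3 (-1.29 ± 0.27) and Klhl6 (-0.96 ± 0.21) averaged under 4 CPM. Igfn1, Cdh3 and Klhl6 were no longer called in 6, 7 and 8 leave-one-out fits. Fam181a, Nipal4, Creb5 and Lratd2 had log2 fold changes of -0.90, -0.79, -0.78 and -0.66, and calls gone in 9, 8, 5 and 0 leave-one-out fits. Without acute libraries 1 and 2, Igfn1, Klhl6, Fam181a, Creb5 and Tnfsf10 were not called.

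The DMSO-injected mice gave a second comparison with its own baseline. In the fit of all 4 groups 226 genes were higher and 176 lower after acute stress in DMSO mice (1.41% and 1.1% of 15995). That fit gave 33 and 10 in 4sU mice, while the 107 and 30 below come from the fit of 4sU mice alone. The share of all genes with the same sign in both arms is not given here. Of the 107 risers in 4sU mice 63 were also higher in DMSO mice and 106 had the same sign, and of the 30 fallers 11 were also lower and 30 had the same sign. In DMSO mice Sgk1 had 1.79, Ddit4 1.43, Fkbp5 0.89 and Arrdc2 1.73, beside 1.57, 1.19, 0.78 and 1.9 in 4sU mice. Plin4 had 0.19 in DMSO mice and 1.26 in 4sU mice. The difference between the arms was called for 0 genes (916 at an unadjusted p under 0.05), while DESeq2 called 18 higher and 3 lower, and edgeR called 1, 4 and 12 without acute DMSO library 2, 4 and 5. Acute DMSO libraries varied more than the others, with a chi-square per degree of freedom of 12.3 to 113 between pairs against 5.56 to 16.7 in acute 4sU mice.

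The second measurement was labelling. The overall conversion rate, T-to-C conversions per 10000 covered T positions in 3′ UTRs, was 5.46, 4.22, 5.05, 4.77 and 4.4 in baseline 4sU libraries and 6.20, 4.76, 5.26, 4.63 and 4.00 in acute 4sU libraries. The acute values spanned the baseline range and went past it on both sides. Means were 4.78 ± 0.50 and 4.97 ± 0.82 (SD, n = 5 each), a difference of 0.188 (exact permutation test, two-sided, p = 0.690, adjusted over 4 tests 0.690). Without acute library 1 the difference was -0.120. Unlabelled DMSO libraries, the background, had 2.46 to 3.18 at baseline and 2.28 to 2.73 after stress. All 4sU libraries were above all DMSO libraries in both states (exact permutation test, p = 0.00794 in each, the smallest it allows, adjusted 0.0159).

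**Figure D4:**
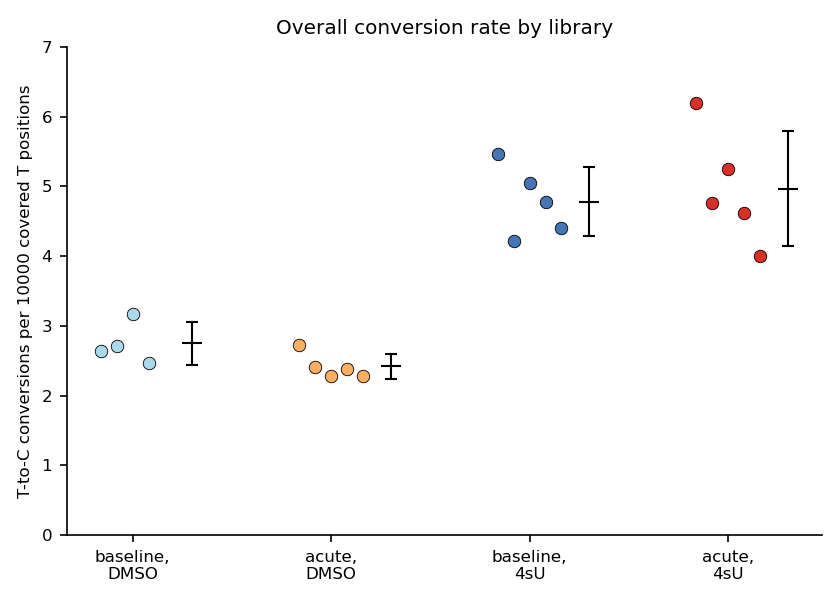
Conversions per 10000 covered T positions in each of 19 libraries, by group, with mean and SD. The 10 libraries with 4sU lie between 4.00 and 6.20, above the 9 DMSO libraries at 2.28 to 3.18, and the acute and baseline 4sU groups overlap.

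No gene's conversion rate was called different between acute and baseline 4sU mice, which does not show that rates were equal: the log2 difference for Sgk1, for one, was 0.21 ± 0.45. Of 8291 genes with a mean of at least 2000 covered T positions, 0.0% passed by edgeR's quasi-likelihood test on conversions, with covered T positions and the library's overall rate as offset (441 had an unadjusted p under 0.05). Counting reads with a conversion gave 1 call, Rad51d, and leaving out baseline library 1 or 4 gave 1, Ythdc2. The smallest p-values upward were those of Epc1, Itfg1 and Rad51d (adjusted p = 0.714, 0.714 and 0.893) and downward those of Ythdc2, Ppp2r5d and Aph1c (0.276, 0.893 and 0.893). Itfg1, an integrin-linked membrane protein gene, had 11.6 conversions per 10000 after stress and 6.23 at baseline, a log2 difference of 0.82. Many of these rates rest on few conversions, 4 for Ythdc2 after stress, and of the 34 for Ythdc2 at baseline most came from library 5, at 53.6 per 10000.

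Genes that rose under stress had conversion rates little above the DMSO background, and their sum showed an excess after stress. Sgk1 had 1.77, 0.981, 1.35, 2.74 and 3.83 conversions per 10000 in baseline 4sU libraries and 1.42, 2.66, 3.14, 1.48 and 3.29 in acute 4sU libraries. Acute DMSO libraries, without label, had 3.69, 1.97, 1.88, 1.96 and 1.83, so the ranges overlapped. Pooled, Sgk1 had 2.44 (exact Poisson 95% interval 1.98 to 2.98, from 96 conversions) after stress with 4sU and 2.18 (1.85 to 2.54) with DMSO. Intervals treat the pooled conversions as independent counts and leave out the spread between libraries. Reads carry no molecular identifiers, so copies of 1 molecule may be counted more than once. Fkbp5 had 3.04 (2.29 to 3.95) against 3.84 (2.93 to 4.95), Tsc22d3 2.85 (2.16 to 3.69) against 1.93 (1.54 to 2.39) and Klf9 2.30 (1.92 to 2.74) against 2.52 (2.21 to 2.86).

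Only 6 of the 21 rising glucocorticoid-responsive genes had the 10000 covered T positions a library used for sums over genes: Sgk1, Fkbp5, Tsc22d3, Klf9, Arrdc3 and Errfi1. Summed, these 6 had 2.15 to 2.81 conversions per 10000 in acute 4sU libraries and 2.00 to 2.54 in baseline 4sU libraries. DMSO libraries had 1.87 to 3.3 after stress and 1.9 to 3.03 at baseline, so all 4 groups overlapped. The 11 members of the whole list with that coverage, uncalled ones included, had 4.56 to 7.19 in acute and 5.08 to 8.02 in baseline 4sU libraries. That sum was far above the typical member: the median gene had 2.60 with 4sU and 2.32 with DMSO after stress, and for 1 of the 11 every acute 4sU library was above every acute DMSO library. All 38 risers with that coverage had 2.64 to 3.59 in acute and 2.80 to 3.60 in baseline 4sU libraries. In DMSO libraries these risers had 2.15 to 2.74 after stress and 2.17 to 3.33 at baseline. After stress only 4sU library 5, at 2.64, lay inside the DMSO range, and the means were 3.04 with 4sU and 2.34 with DMSO. The 4305 genes called neither way had 4.16 to 6.52 and 4.36 to 5.77, with 2.25 to 2.69 in acute DMSO libraries. These sums weight genes by coverage, and median gene rates lay closer: 3.03 for the uncalled genes and 2.59 for the risers in acute 4sU mice, with median excesses over DMSO of 0.817 and 0.323. At baseline these median excesses were 0.519 and 0.0365, and the 4sU and DMSO sums of the risers overlapped. Every acute 4sU library was above every acute DMSO library for 2 of the 38 risers, Glul and Ptpdc1, against 657 of 4374 genes (15%). Glul had 4.61 (4.31 to 4.93) conversions per 10000 with 4sU and 2.40 (2.25 to 2.56) with DMSO after stress, and 4.54 at baseline with 4sU. The part of this abundant gene in the sum of the 38 risers was not tested.

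**Figure D5:**
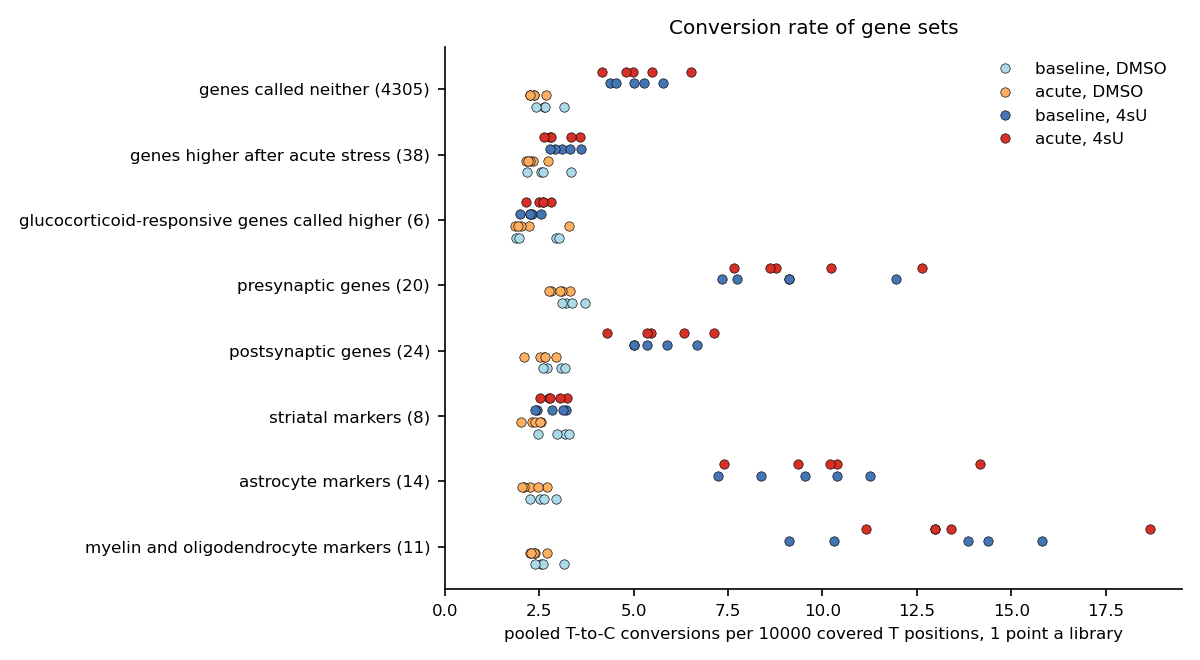
Summed conversions per 10000 covered T positions in each of the 19 libraries for 8 gene sets with the number of genes, by group. Risers lie at 2.64 to 3.59 in acute 4sU mice and at 2.15 to 2.74 in acute DMSO mice, while astrocyte and myelin markers reach 14.2 and 18.7.

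Astrocyte and myelin markers carried label in both states. Gfap had 33.7, 21.5, 19.7, 20.4 and 16.3 conversions per 10000 in acute 4sU libraries and 25.7, 18.1, 21.5, 18.1 and 14.5 in baseline ones, against 1.82 to 2.93 in acute DMSO libraries. Their log2 difference was 0.12 ± 0.13 (adjusted p = 0.996). The lipid enzyme gene Scd1 had 15.1 to 33.0 after stress and 15.7 to 37.3 at baseline. Summed, 14 astrocyte markers had 7.38 to 14.2 and 7.24 to 11.3, and 11 myelin markers 11.2 to 18.7 and 9.11 to 15.8. Sums over the other glial lists were lower: 6 oligodendrocyte precursor markers had 3.32 to 4.87 after stress and 2.11 to 4.14 at baseline, beside 2.11 to 3.49 and 3.07 to 4.08 in DMSO libraries. For 1 of these 6 every acute 4sU library was above every acute DMSO library, and Ptprz1 had the largest excess among them. The 2 microglia markers with coverage had 0.343 to 4.79 in acute 4sU libraries, with 0 separated from DMSO, and are too few to speak for microglia genes. Striatal markers, 8 genes, had 2.51 to 3.23 and 2.38 to 3.20, near the 2.01 to 2.56 of acute DMSO libraries. Genes among the 10 with the largest excess over DMSO after stress were Nr1d1, Scd1, Serpina3n, Gfap, Acsbg1, Prxl2a, Gpm6b, Ddah1 and Laptm5. Of the 10, Nr1d1, a clock repressor, was the only one with a pooled rate above 4.00 in acute DMSO libraries, where no label was given: it had 182 conversions per 10000 there and 257 with 4sU.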

How the data were processed

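Total RNA of mouse amygdala was alkylated and sequenced. Per the submitters' processing notes, cutadapt 3.1, HISAT2 2.1.0, SAMtools 1.9, featureCounts 2.0.1 and the mouse build mm10 were used; strand setting and treatment of multiple matches are not stated there. The authors deposited raw exon counts for 25239 genes. Per the file headers, slamdunk 0.4.3 made the deposited tables over 23996 3′ UTR intervals, with counts of covered T positions, T-to-C conversions and reads. The same deposited tables give reads as CPM, used only for the share of a library's reads in 3′ UTR intervals (16.1% to 17.4% in the 10 libraries). Each gene's best covered interval was used, which kept 87.5% of covered T positions. No sample column was left unused (0).

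For expression, edgeR 4.0.16 (R 4.3.3) fitted a robust quasi-likelihood model (TMM scaling, filterByExpr, Benjamini-Hochberg, adjusted p under 0.05) on the 10 libraries of the comparison. The standard error is the absolute log2 fold change over the square root of F. Conversions were tested with the same tool, with an offset for covered T positions and the library's overall rate, in genes with at least 2000 covered T positions on average, and overall rates with an exact permutation test (SciPy 1.17.1). The level of a list is the mean of log2(CPM + 0.5). Tests were checked on simulated data, where the conversion test missed most of the smaller and part of the larger changes put in.

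Described genes are the 12 largest rises and 12 largest falls among calls with a mean of at least 1 CPM in a group, called glucocorticoid-responsive genes, 11 fixed stress and activity genes, up to 4 members of each other list by smallest p, and for conversion the 3 smallest p-values each way and the 10 largest excesses. Others are named from their list or where stated. Members and the 29 lists were chosen with earlier results of these data known. Promoter sequences are from RefSeq (GRCm38.p6).

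Alternatives were DESeq2 1.42.0, other scalings, filters and coverage minima, a fit of all 4 groups, 3′ UTR reads, a replicate block and leaving out each library. Thinned counts and the fit without acute libraries 1 and 2 were added after seeing the data. Some items that the rule selects are not reported here.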

Additional observations from a re-analysis of the deposited data

Results flagged for a closer look

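Of 165 groups of 5 libraries checked, 13 held 1 library far from the other 4 (gap to the nearest over the whole range above 0.71), and chance alone flags about 1 in 20 groups. Acute library 2 had 71.4 CPM of Arrdc2 where the others had 58.6 to 61.7, and 66.9 CPM of Sesn1 against 61.3 to 61.7. Baseline library 3 had 13.9 CPM of Cdkn1a against 8.59 to 9.79, and 28.8 CPM of Nfkbia against 21.3 to 23.2. Baseline library 5 had 18.1 CPM of Igfn1 against 6.40 to 9.72. Acute library 3 had 2.41 CPM of Fam181a against 1.32 to 1.44. Baseline library 1 had 22.2 CPM of Foxj1 against 27.7 to 28.9.

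The other 6 were mean levels of gene lists, in log2 CPM. Baseline library 3 was low for corticosteroid receptors and chaperones (7.37 against 7.44 to 7.45) and for presynaptic genes (8.87 against 9.02 to 9.05). Baseline library 4 was low for mTOR brakes (5.99 against 6.09 to 6.11), baseline library 5 for oxidative phosphorylation (6.50 against 6.67 to 6.70) and baseline library 1 for oligodendrocyte precursor markers (4.83 against 5.03 to 5.06). Acute library 2 was high for stress hormones and neuropeptides (4.31 against 4.13 to 4.16).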

How the results depend on the processing

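The 137 calls (107 higher, 30 lower) became 43 (33 and 10) with all 4 groups in the fit and 232 (175 and 57) with DESeq2, and 3′ UTR reads gave 15 lower. Leaving out 1 library gave 12 to 34 lower. For the difference between 4sU and DMSO mice, DESeq2 gave 21 calls and leaving out 1 library 0 to 12. Conversion per gene gave 1 call from reads with a conversion and 0 to 1 without 1 library. The difference in overall conversion rate ran from -0.120 to 0.430 without 1 library. The causes were not tested.

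The signs that turned belonged to genes not called with all 10 libraries; most had small log2 changes, but Pmch (1.51) and Oxt (0.78) did not. Fkbp4 had 0.00387 with 4 groups, 0.00260 with DESeq2, 0.00284 with RLE, 0.00125 with no filter, 0.00345 with 1 CPM in 5 libraries, 0.171 with 3′ UTR reads and 0.00386 with thinned counts. With 3′ UTR reads Fos had 0.264, Stip1 -0.00430, Irf1 0.0370, Ndufs1 -0.0347, Rpl23 0.0598, Rxrg 0.0563, Eif2s3y 0.231 and Ddx3y -0.0459. Without acute libraries 1 and 2 Fkbp4 had 0.0459, Stx1a 0.0241, Ndufs3 0.0353, Rpl23 0.0531, Rpl8 0.0498, Adora2a 0.0396, Rxrg 0.0999, Pmch -1.04, Oxt -0.430, Slc17a6 -0.00814, Uty -0.00200 and Ddx3y -0.122. Without 1 library the ranges were -0.0666 to 0.0381 for Nr3c2, -0.0391 to 0.0244 for Fkbp4, -0.0730 to 0.183 for Bdnf, -0.157 to 0.148 for Fos, -0.00121 to 0.189 for Ndufa2, -0.0527 to 0.222 for Drd1, -0.171 to 0.0332 for Rxrg and -0.0504 to 0.0921 for Ddx3y.

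The labels' replicate numbers showed no pairing of the samples in expression. Deviations of same-numbered libraries correlated at -0.0711, 0.130, 0.192, -0.312 and -0.178. Of the baseline libraries only library 2 correlated best with the acute library of its own number. With the replicate block 110 genes were called (84 higher, 26 lower, 99 of them among the 137), Fkbp4 had 0.00119 and Fos 0.0158, and the block gave 0 calls for the difference between arms and for conversion.

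RLE, upper-quartile scaling, no filter, 1 CPM in 5 libraries and thinned counts gave 140, 132, 146, 140 and 138 calls. Conversion rates of single genes often rest on few conversions.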

Other observations

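Acute libraries 1 and 2 differed from the others in further genes, chosen after their values were seen. Nnt, a mitochondrial transhydrogenase gene that is partly deleted in some inbred mouse substrains, had 36.1 and 43.0 CPM in them, 22.6, 27.1 and 25.5 in the other acute 4sU libraries, 21.7 to 23.5 at baseline and 20.3 to 24.8 in DMSO libraries. Erdr1, a gene near the end of the sex chromosomes, had 0 and 0.152 CPM in them and 1.34 to 20.7 in the other 8. Srp54b, a signal recognition particle gene, ranged from 1.19 to 19.5 CPM over the 10 libraries with no split by group. Mean ribosomal protein levels were 7.15 and 7.15 log2 CPM in these 2 libraries and 7.21 to 7.61 in the rest.

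Presynaptic genes carried label as well: 20 of them had 7.65 to 12.6 conversions per 10000 in acute and 7.35 to 12 in baseline 4sU libraries, against 2.75 to 3.32 in acute DMSO libraries. For 13 of the 20 every acute 4sU library was above every acute DMSO library, against 657 of all 4374 genes. For 24 postsynaptic genes the ranges were 4.30 to 7.14 and 5.01 to 6.69, with 3 genes so separated, a smaller share than among all genes. The median gene rate in acute 4sU mice was 8.03 for presynaptic genes, 3.22 for postsynaptic genes and 3.02 for all genes.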
